A study of Mus musculus with 12 samples.

Results

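The comparison described here sets cells given LPS together with an antibody to CD36 against cells given LPS alone. The cells were RAW264.7, a mouse macrophage-like line, of wild-type genotype in every group. LPS (lipopolysaccharide, the outer-membrane glycolipid of Gram-negative bacteria) was given at 50 ng/ml in both groups, and anti-CD36 was added at a dilution of 1 in 100 in one of them. Each group had 3 libraries of RNA-seq data, so 6 of the 12 libraries of the study enter the comparison. The other 6 were 3 untreated libraries and 3 with anti-CD36 alone, and they served for the shared estimate of error and for the comparison of the antibody's change with and without LPS. Levels are FPKM, the fragments per kilobase of gene model and unit of sequencing depth, as the authors deposited them. A gene was tested if 3 or more of the 12 libraries had 1 FPKM or more, and Il6 is among the 10277 genes, of 31801 entries, that met this. The labels name no isotype control antibody and no treatment time, so an effect of binding CD36 and an effect of any antibody cannot be told apart. The labels do not say that replicates came from separate cultures, so the p-values rest on the spread among these libraries alone, which may be technical. In bulk RNA, fewer cells of a kind and less RNA per cell cannot be told apart.

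CD36 is a membrane protein of macrophages that takes up fatty acids, binds oxidised lipids as a scavenger receptor and can cooperate with Toll-like receptors. LPS is sensed through CD14 and TLR4, and signalling through NF-κB and MAP kinases switches on cytokines, chemokines and early transcription factors. In LPS-treated macrophages the hypoxia-inducible factor HIF-1 also accumulates. Its alpha subunit is otherwise hydroxylated by the EGLN enzymes and degraded through VHL, and its targets include glucose transporters, glycolytic enzymes and mitophagy receptors.

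With anti-CD36 added to LPS, a set of secreted inflammatory products stood higher and the genes of the hypoxia response stood lower. Il6 was 5.01-fold higher, Timp1 4.75-fold and Lcn2 4.23-fold, whereas Bnip3 was 5.77-fold lower, Ndrg1 4.92-fold and Adm 4.54-fold. Tnf, the best known LPS-induced cytokine, was not called. Of the 10277 genes, 1592 (15.5%) passed an adjusted p of 0.05 in limma on log2(FPKM + 1) with Benjamini-Hochberg adjustment. At an unadjusted p under 0.05 there were 3473. Of these 1592, 755 (7.35% of the genes tested) were higher with the antibody and 837 (8.14%) were lower. A change of at least 2-fold on that scale was called for 27 genes that were higher (0.263%) and 72 that were lower (0.701%). The 3 libraries of one group lay wholly above the 3 of the other for 2023 genes higher with anti-CD36 (19.7%) and 1683 genes lower (16.4%). Fold changes below are ratios of mean FPKM. Log2 changes were taken after adding 1 to each FPKM, so they come out smaller than the fold for genes near or below 1 FPKM. The 3 LPS+anti-CD36 libraries are called antibody libraries or antibody replicates below.

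**Figure D1:**
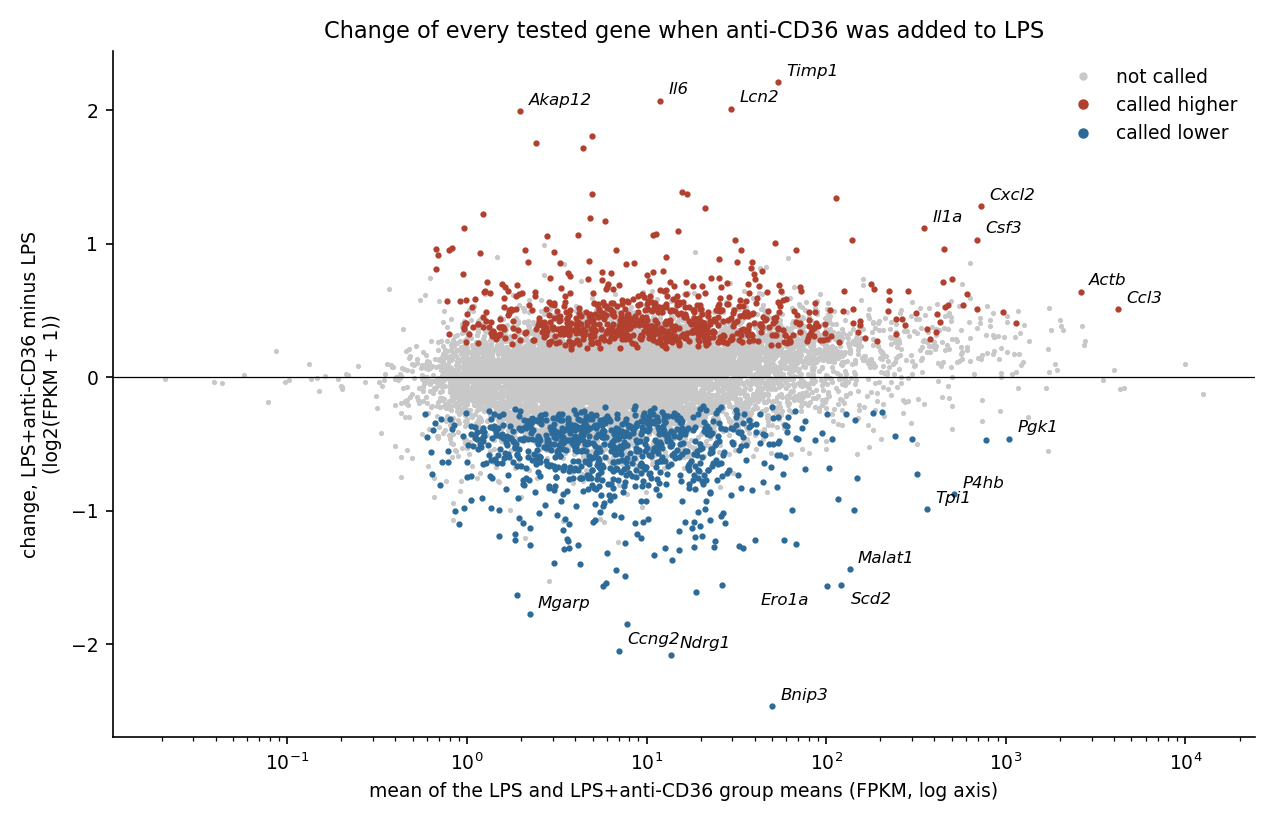
Each point is one of the 10277 tested genes, with the mean of the LPS and LPS+anti-CD36 group means on the x axis (FPKM, log axis) and the change LPS+anti-CD36 minus LPS on the y axis (log2(FPKM + 1)). Called genes are coloured, 755 higher and 837 lower, and the 72 genes called lower by at least 2-fold outnumber the 27 called higher by at least 2-fold.

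Depth, recovered from the steps between low FPKM values, was 32331430, 31516390 and 33881060 fragments in the LPS libraries and 36861330, 40274070 and 48637090 in the LPS+anti-CD36 libraries. At those depths 1 FPKM on a 2000-base gene stands for 63.03 to 97.27 fragments. The LPS libraries differed among themselves: Malat1, a nuclear noncoding RNA, read 97.7, 218 and 292 FPKM in LPS replicates 1 to 3 against 74.2, 60.7 and 68.3 with the antibody, and Actb read 2314, 2014 and 1823 against 3278, 3238 and 3041. Without LPS replicate 1 the fit called 3980 genes, and without any other single library of the 2 groups it called 586 to 849. Genes called lower had longer transcripts (median exon union 6737 bases) than genes called higher (2836 bases) or all genes tested (4301 bases). Across the 10093 tested genes with a GC content and length, the change had a Spearman rho of −0.5 with log2 length and 0.37 with GC percent. The part of these trends in single results was not tested beyond the refit with a GC and length trend removed. With values rescaled to TPM the median change of all genes moved from 0.02 to −0.09, and the calls split into 387 higher and 790 lower, so directions below are relative to the FPKM scale unless the TPM value is given. Of 10 macrophage markers 9 stood at 1 FPKM or more, with Lyz2 the most abundant, and their summed level was 5487 to 7102 FPKM in the LPS libraries and 6516 to 7059 with the antibody. Markers of fibroblasts, epithelium, endothelium, neutrophils, dendritic cells and mast cells summed to less than 1 FPKM in each of the 6 libraries, and B-cell markers to at most 1.13 FPKM. T-cell markers summed to 4.98 to 7.77 FPKM with LPS and 5.73 to 6.59 FPKM with the antibody, nearly all of it Lck, with Cd3d, Cd3e, Cd3g and Cd8a at 0.

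**Figure D2:**
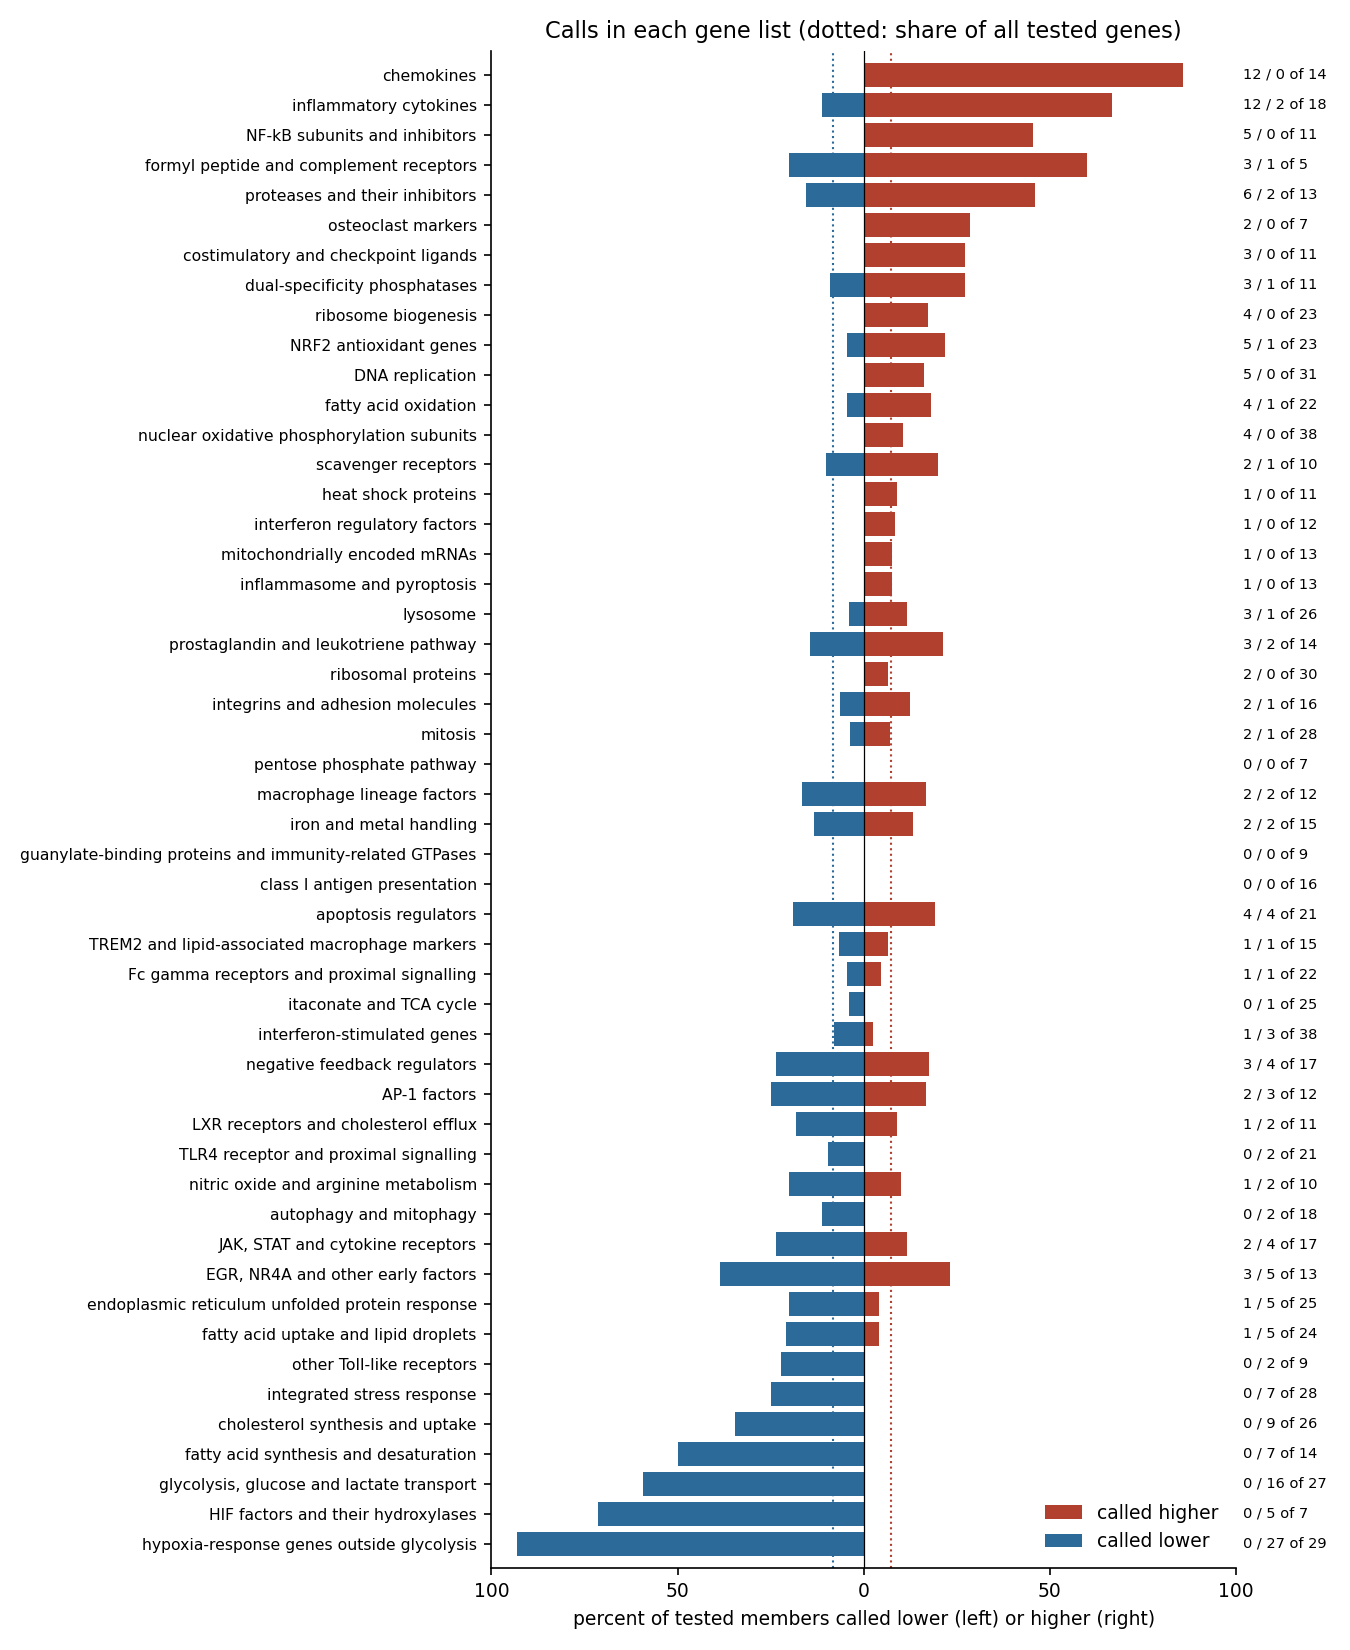
For each of the 50 gene lists with at least 5 tested members, bars give the percent of tested members called lower (to the left) or higher (to the right) in LPS+anti-CD36 against LPS, and the numbers at the right give the counts. Dotted lines mark the share of all tested genes, 7.35% higher and 8.14% lower. Hypoxia-response genes have the highest share called lower (27 of 29) and chemokines the highest share called higher (12 of 14).

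Cd36 itself, the antibody's target (chr5:17781690-17888801 on GRCm38), read 4.40, 5.85 and 7.33 FPKM with LPS and 10.4, 10.9 and 12.3 FPKM with LPS and anti-CD36. Every antibody library stood above every LPS library, and the mean was 1.92-fold higher (log2 change 0.85, SE 0.14, limma adjusted p = 0.00214). The antibody binds the protein, so the transcript does not check the labels. Tlr4, the LPS receptor, read 5.13, 7.81 and 8.28 FPKM with LPS and 3.52, 3.89 and 4.53 FPKM with the antibody. Its groups did not overlap and the log2 change was −0.68 (SE 0.17, adjusted p = 0.0227), but the call was lost in 6 of 25 alternative analyses, among them the fit on these 6 libraries alone (adjusted p = 0.0532) and the fits without LPS replicate 2 or 3 or antibody replicate 1 or 2. Cd14, the LPS coreceptor, averaged 1569 ± 266 FPKM (SD, n = 3) with LPS and 1987 ± 106 FPKM with the antibody and was not called (log2 change 0.35, adjusted p = 0.0953).

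Of 21 genes for the TLR4 receptor and its proximal signalling, 2 were called lower and none higher. That lower share is near the 8.14% of all tested genes called lower. These were Tlr4 and Ticam2, which encodes the adaptor TRAM (log2 change −0.59, adjusted p = 0.00867). Without LPS replicate 1 the count of lower members was 8, and without LPS replicate 2 or 3 or antibody replicate 1 or 2 it was 1. Among 9 other Toll-like receptors 2 fell, both endosomal sensors of RNA. Tlr13 read 6.70, 9.21 and 11.1 FPKM with LPS and 2.34, 3.29 and 3.30 FPKM with the antibody (log2 change −1.32, adjusted p = 0.000759). Tlr7 read 18.3, 24.8 and 30.5 FPKM against 12.9, 13.4 and 15.4 FPKM (log2 change −0.75, adjusted p = 0.0136), a call lost without LPS replicate 2 or antibody replicate 1 or 2. For both receptors the LPS libraries spread more widely than the antibody libraries, with LPS replicate 1 the lowest of its group and still above all 3 antibody libraries.

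Il6, the gene of interleukin-6 (chr5:30013114-30019981), was low under LPS alone, at 3.77, 4.23 and 3.89 FPKM, and read 20.1, 18.9 and 20.6 FPKM with the antibody. The groups were far apart relative to their spread, at 3.96 ± 0.241 and 19.9 ± 0.845 FPKM (SD, n = 3), a log2 change of 2.07 (SE 0.08, adjusted p = 8.58e-08). That SE and p draw partly on the 6 libraries without LPS, in which the deposited Il6 values equal those of Gm10874. In limma on the LPS and LPS+anti-CD36 libraries alone the adjusted p was 0.000253. The recovered fragment counts behind these values were 296, 324 and 320 with LPS and 1797, 1853 and 2433 with the antibody. Tnf read 1326, 1134 and 1067 FPKM with LPS and 1315, 1253 and 1186 FPKM with the antibody, so the groups overlapped (log2 change 0.10, SE 0.10, adjusted p = 0.513), and the sign turned to −0.02 on the TPM scale.

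Across the list of 18 inflammatory cytokines 12 rose, 2 fell and the median log2 change was 0.50, against 0.02 for all genes tested. On the TPM scale 9 of the 18 were higher. Both interleukin-1 genes rose. Il1a read 178, 218 and 270 FPKM with LPS and 442, 466 and 522 FPKM with the antibody, a 2.15-fold difference (log2 change 1.12, adjusted p = 0.0002). Il1b read 278, 311 and 329 FPKM against 576, 575 and 638 FPKM, a 1.95-fold difference (log2 change 0.96, adjusted p = 2.09e-05). In each case the lowest antibody library stood well above the highest LPS library. Il1rn, which encodes the natural antagonist of the interleukin-1 receptor, rose less, by 0.50 on the log2 scale (adjusted p = 0.00399).

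The colony-stimulating factor genes Csf2 and Csf3, which encode GM-CSF and G-CSF, were 2.04-fold and 2.01-fold higher. Csf2 was 34.9, 33.4 and 34.3 FPKM with LPS and 69.8, 71.5 and 68.2 FPKM with the antibody, with little spread in either group (log2 change 1.01, SE 0.06, adjusted p = 3.05e-06). Csf3 spread more, at 588, 411 and 372 FPKM against 985, 931 and 838 FPKM (log2 change 1.03, adjusted p = 0.000736). Lta, the gene of lymphotoxin alpha, averaged 8.91 ± 0.410 FPKM with LPS and 24.6 ± 0.586 FPKM with the antibody, a 2.76-fold difference. Il23a and Il27, which encode subunits of the cytokines interleukin-23 and interleukin-27, rose by 1.06 and 0.96 on the log2 scale. The 2 cytokine genes that fell were Tnfsf15 (log2 change −0.86, adjusted p = 0.0238) and Il15 (−0.40, adjusted p = 0.0175), and neither was called without LPS replicate 2 or antibody replicate 1 or 2.

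Chemokines, which attract leukocytes, moved one way: 12 of 14 tested rose, none fell, and the median log2 change was 0.55. The count was 7 without LPS replicate 2. Cxcl2, a neutrophil attractant, read 467, 402 and 405 FPKM with LPS and 1138, 1036 and 934 FPKM with the antibody. The groups lay far apart, with the spread of each small beside the gap, and the log2 change was 1.28 (SE 0.09, adjusted p = 9.07e-06). Ccl17 and Ccl22, ligands of the chemokine receptor CCR4, rose 2.50-fold and 2.04-fold. Ccl22 was 103, 87.5 and 85.0 FPKM with LPS and 204, 183 and 178 FPKM with the antibody. Ccl3, at 3818, 3324 and 3329 FPKM the most abundant chemokine named here, read 5038, 4977 and 4896 FPKM with the antibody (log2 change 0.51, adjusted p = 0.00662). Ccl2, Ccl5 and Cxcl10 rose by 0.82, 0.63 and 0.42 on the same scale. The call of Cxcl10 was lost on the TPM scale (adjusted p = 0.117) and without LPS replicate 2 or 3 or antibody replicate 2 or 3.

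**Figure D3:**
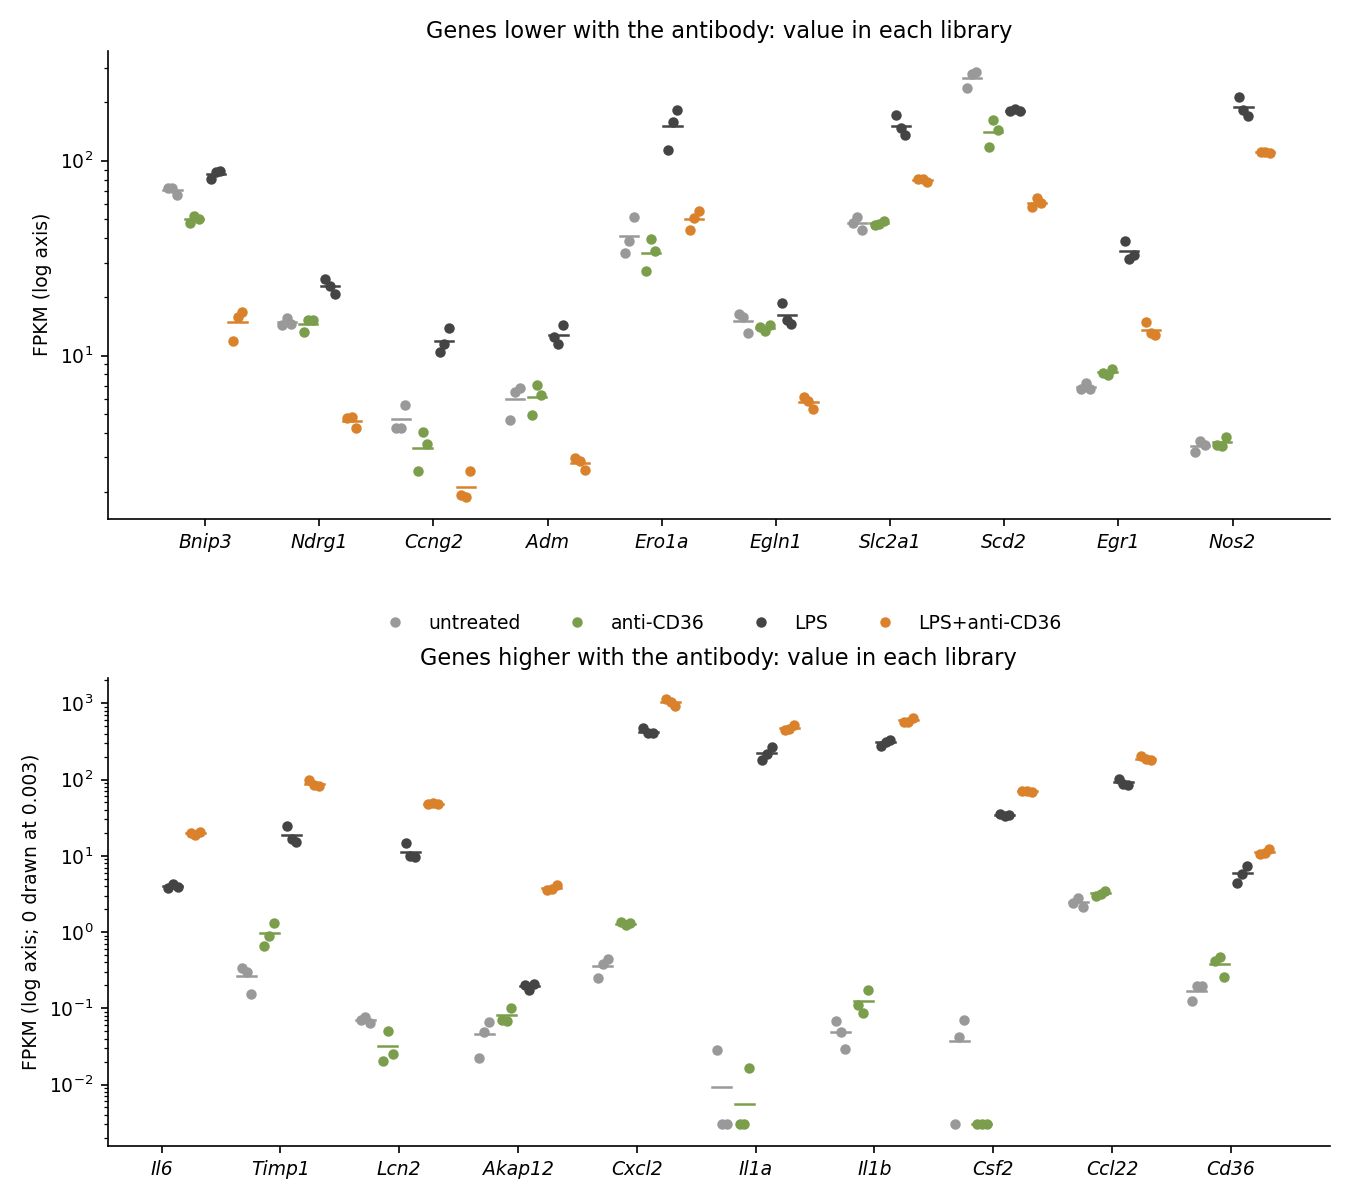
FPKM (log axis) of 20 genes in every library of the 4 groups; each point is a library and each bar the group mean. Genes lower with anti-CD36 are in the upper panel and genes higher in the lower panel, with values of 0 drawn at 0.003 and the untreated and anti-CD36 values of Il6 omitted. The 3 LPS+anti-CD36 points of Bnip3 lie at 11.9 to 16.8 FPKM under LPS points of 80.6 to 88.6, and those of Il6 at 18.9 to 20.6 above LPS points of 3.77 to 4.23.

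Other secreted products and their inhibitors were among the genes of largest change. Timp1, which encodes an inhibitor of matrix metalloproteinases, read 24.2, 16.5 and 15.1 FPKM with LPS and 99.4, 84.5 and 81.6 FPKM with the antibody (log2 change 2.21, SE 0.17, adjusted p = 1.07e-05). Lcn2, the siderophore-binding protein lipocalin-2, read 14.6, 9.87 and 9.61 FPKM against 48.0, 48.9 and 47.2 FPKM (log2 change 2.01, SE 0.12, adjusted p = 3.05e-06). In both genes LPS replicate 1 was the highest LPS library and still far under the lowest antibody library. Akap12, a scaffold for protein kinase A, went from under 1 FPKM in every LPS library (0.202, 0.174 and 0.211) to 3.55, 3.63 and 4.14 FPKM, a 19.3-fold ratio of means that the log2(FPKM + 1) scale gives as 2.00 (adjusted p = 8.58e-08). Only the LPS+anti-CD36 group, where it is higher, brought Akap12 past the filter of 1 FPKM, so filter and test draw on the same values. Of 13 proteases and inhibitors 6 rose and 2 fell, with 1 lower call left on the TPM scale and when LPS replicate 2 or 3 or any one antibody library was left out. Slpi, a secreted inhibitor of leukocyte proteases, was 80.9, 60.1 and 52.0 FPKM with LPS and 169, 161 and 155 FPKM with the antibody, and Mmp9, a gelatinase, was 26.3, 21.7 and 19.8 FPKM against 45.4, 47.0 and 40.6 FPKM. The stefin A genes Csta3 and Cstdc4 and their neighbour Stfa3 were also called higher, but these cysteine protease inhibitors are near-identical copies among which reads may be split, so their single values are uncertain. Stfa3, like Akap12, passed the filter only through the LPS+anti-CD36 group.

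Receptors for bacterial and complement peptides were a short list of 5, of which 3 rose and 1 fell. Another 7 listed receptors were not tested, and with the filter at 5 FPKM the number called higher was 1. Fpr1, a formyl peptide receptor, was under 1 FPKM with LPS (0.234, 0.144 and 0.134) and above it with the antibody (1.39, 1.11 and 1.12). Of these 2 groups only the antibody group, where it is higher, brought it past the filter of 1 FPKM. Fpr2 read 1.58, 1.32 and 1.46 FPKM against 3.41, 4.87 and 4.16 FPKM. C3ar1, the receptor for complement C3a, was the member that fell. Tnfrsf1b, the second TNF receptor, rose from 31.7, 31.7 and 32.7 FPKM to 57.5, 57.0 and 54.2 FPKM (log2 change 0.79).

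Among 11 NF-κB subunits and inhibitors 5 rose and none fell (median log2 change 0.40). The count was 3 without any one of LPS replicate 2, LPS replicate 3, antibody replicate 1 or antibody replicate 2. The 5 were Nfkb2 (log2 change 0.68), the atypical inhibitors Bcl3 (0.79) and Nfkbid (0.43), Nfkbie (0.78) and Nfkbia, which encodes the inhibitor IκBα. Nfkbia read 257, 217 and 200.5 FPKM with LPS and 342, 304 and 268 FPKM with the antibody (adjusted p = 0.0349), groups that lay apart by a small gap. The calls of Nfkbia and Nfkbid were the ones lost in these fits, and that of Nfkbia was lost in 8 of 25 alternatives. Rel was not called (log2 change −0.51, adjusted p = 0.0901). Feedback regulators were divided, with 3 of 17 higher (6 without LPS replicate 1) and 4 lower. Socs3, an inhibitor of cytokine receptor signalling, was 0.64 higher on the log2 scale, whereas Tnfaip3, the ubiquitin-editing enzyme A20, read 5.95, 6.69 and 7.12 FPKM with LPS and 4.37, 4.35 and 4.03 FPKM with the antibody (log2 change −0.53, adjusted p = 0.0084). Atf3, a stress-induced repressor of cytokine genes, fell from 84.3, 77.8 and 82.0 FPKM to 35.1, 34.1 and 34.2 FPKM (log2 change −1.21, adjusted p = 4.03e-05).

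Early transcription factors downstream of MAP kinases also went in both directions. Of 13 EGR, NR4A and related factors 3 rose and 5 fell. Egr1 read 38.6, 31.2 and 32.9 FPKM with LPS and 14.9, 13.0 and 12.8 FPKM with the antibody, 2.52-fold lower with no overlap (log2 change −1.27, adjusted p = 7.62e-06). Egr3, Myc and Klf6 fell by 0.65, 0.51 and 0.77 on the log2 scale. The orphan nuclear receptor Nr4a1 went the other way, from 2.65, 2.33 and 2.65 FPKM to 7.76, 6.64 and 6.91 FPKM (2.79-fold, adjusted p = 2.13e-05), as did Nr4a2 (log2 change 0.93) and Klf2 (0.55, not called without antibody replicate 2). With the GC and length trend removed, 9 of the 13 were called lower. Of 12 AP-1 factors 3 fell, among them Jun by 0.64, and 2 were called higher, a count that was 0 on the TPM scale and without LPS replicate 2 or 3 or antibody replicate 1 or 2. Of 11 dual-specificity phosphatases, which switch MAP kinases off, Dusp2 (log2 change 0.88) and Dusp5 (0.60) were among the 3 that rose and Dusp4 (−0.72) was the 1 that fell.

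Nos2, which encodes inducible nitric oxide synthase, was lower with the antibody. It read 211, 182 and 170.2 FPKM with LPS and 111, 110.4 and 109.6 FPKM with the antibody, 1.70-fold lower (log2 change −0.76, SE 0.09, adjusted p = 0.000222). The antibody libraries hardly differed from each other, and all lay under the lowest LPS library. In the same list of 10 genes for nitric oxide and arginine metabolism, Slc7a1, a transporter of cationic amino acids, fell (log2 change −0.41), and Ass1, which regenerates arginine from citrulline, rose from 1.26, 1.43 and 1.09 FPKM to 3.30, 3.20 and 2.80 FPKM. Ptgs2, the inducible cyclooxygenase, was not called (log2 change −0.33, adjusted p = 0.282). Of 14 prostaglandin and leukotriene genes 3 rose and 2 fell, among them Hpgds, a prostaglandin D synthase (log2 change −0.86, adjusted p = 0.0295). The 3 higher calls fell to 0 on the TPM scale, and the 2 lower calls fell to 0 without LPS replicate 2 or any one of the antibody libraries.

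The hypoxia response was the list with the highest share of members called lower. Of 29 tested hypoxia-response genes outside glycolysis 27 fell, none rose, 16 fell by at least 2-fold on the log2(FPKM + 1) scale, and the median log2 change was −1.07. The 16 are to be read beside the 72 genes of the whole table that fell that far. The count of lower members ranged from 21 to 28 when any 1 library was left out. For 27 of the 29 the LPS+anti-CD36 libraries lay wholly under the LPS libraries. The members not called were Car9 and Kdm4c. Kdm4c (log2 change −0.32, adjusted p = 0.209) and Car9 (0.20, adjusted p = 0.198, with a sign that was lost once the GC and length trend was removed) did not pass.

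The promoter letters of 4 genes are printed here as examples: Bnip3 and Ero1a from the hypoxia list, Cxcl2 from the chemokines and Il6 from the cytokines. Cytokine windows without a kappa-B match were the more common, and the 250 bases of Il1b, not printed, held neither motif. They are the 250 bases before the RefSeq start on GRCm38.p6, 5′ to 3′ on the gene's strand, for Bnip3 (chr7:138909507-138909756, minus strand), Ero1a (chr14:45318573-45318822, minus), Cxcl2 (chr5:90903649-90903898, plus) and Il6 (chr5:30012864-30013113, plus). Capitals mark the hypoxia response core, searched as ACGTG and GCGTG on both strands (so also CACGT and CACGC), and the kappa-B consensus, the decamer bound by NF-κB.
Bnip3: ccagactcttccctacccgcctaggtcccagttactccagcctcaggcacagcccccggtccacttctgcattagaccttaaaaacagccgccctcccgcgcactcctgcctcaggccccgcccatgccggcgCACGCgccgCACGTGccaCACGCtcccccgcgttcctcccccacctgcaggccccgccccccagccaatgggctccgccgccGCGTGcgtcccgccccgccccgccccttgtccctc
Ero1a: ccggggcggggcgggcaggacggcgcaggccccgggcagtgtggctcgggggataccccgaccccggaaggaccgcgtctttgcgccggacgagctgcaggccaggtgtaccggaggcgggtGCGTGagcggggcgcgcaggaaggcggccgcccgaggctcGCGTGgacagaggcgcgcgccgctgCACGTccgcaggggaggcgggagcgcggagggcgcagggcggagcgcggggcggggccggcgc
Cxcl2: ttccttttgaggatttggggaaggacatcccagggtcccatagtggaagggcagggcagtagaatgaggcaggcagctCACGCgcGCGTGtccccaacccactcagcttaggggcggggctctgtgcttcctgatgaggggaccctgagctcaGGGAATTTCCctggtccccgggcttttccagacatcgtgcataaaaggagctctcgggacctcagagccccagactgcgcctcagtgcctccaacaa
Il6: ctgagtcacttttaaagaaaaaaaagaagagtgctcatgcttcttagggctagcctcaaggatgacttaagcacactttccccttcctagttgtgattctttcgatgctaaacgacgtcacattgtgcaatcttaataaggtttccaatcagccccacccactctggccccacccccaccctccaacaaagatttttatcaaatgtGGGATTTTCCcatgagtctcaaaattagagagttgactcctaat
Bnip3 holds 5 matches of the hypoxia core, of which CACGT and ACGTG overlap in one run of capitals, Ero1a holds 3, and Cxcl2 holds 2 hypoxia cores and 1 kappa-B match. Il6 holds 1 kappa-B match and no hypoxia core. Other windows were searched and not printed. Ccng2 and Egln3 held 1 hypoxia core each, Egln1, Adm and the riser Timp1 2 each, Ankrd37 4, Insig1 5 and the riser Lcn2 0. In windows of 300 bases (250 before to 50 after the start), the hypoxia core was present in 22 of the 24 hypoxia-list genes with a window (91.7%) and in 23 of 26 glycolysis genes (88.5%). It was present in 69.6% of the 8043 tested genes with a window and in 43.8% of all 32851 windows. Among genes called lower with the antibody the share was 73.2%, and among genes called higher 63.4%. It was present in 2 of 12 cytokine genes (16.7%) and 5 of 8 chemokine genes (62.5%). The kappa-B consensus was present in 3 of 12 cytokine windows (25.0%) and 3 of 8 chemokine windows (37.5%), against 8.2% of tested genes. Its share was 8.8% among genes called higher and 9.7% among genes called lower, 12.5% in the hypoxia list and 11.5% in the glycolysis list. A match is a string of letters and does not show that a factor binds there.

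Bnip3, a mitophagy receptor of the outer mitochondrial membrane, showed the largest fall on the log2(FPKM + 1) scale among the 15 falling genes named for size of change. It read 80.6, 87.0 and 88.6 FPKM with LPS and 11.9, 15.8 and 16.8 FPKM with the antibody (log2 change −2.46, SE 0.11, adjusted p = 1.97e-07). Its relative Bnip3l read 24.0, 30.3 and 32.2 FPKM against 7.99, 9.02 and 9.25 FPKM (log2 change −1.61). For both receptors the highest antibody library stood far under the lowest LPS library.

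Ndrg1, a hypoxia-induced gene that restrains metastasis in tumours, read 24.7, 22.7 and 20.8 FPKM with LPS and 4.77, 4.86 and 4.26 FPKM with the antibody (log2 change −2.08, SE 0.09, adjusted p = 1.33e-07). Ccng2, an atypical cyclin linked to cell cycle arrest, was 10.4, 11.4 and 13.8 FPKM against 1.92, 1.87 and 2.56 FPKM, 5.62-fold lower. Adm, the vasodilator peptide adrenomedullin, was 12.5, 11.5 and 14.3 FPKM against 2.97, 2.88 and 2.58 FPKM, 4.54-fold lower. The antibody libraries of these genes lay within 1 FPKM of each other, far under the lowest LPS library. Mgarp, a mitochondrial protein gene that is outside the list and named for the size of its change, fell from 4.49, 3.95 and 3.56 FPKM to 0.394, 0.408 and 0.587 FPKM, an 8.63-fold difference. Vegfa, the angiogenic growth factor, read 29.8, 31.3 and 32.0 FPKM with LPS and 14.0, 15.3 and 13.6 FPKM with the antibody (2.17-fold lower, adjusted p = 2.13e-05).

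Members with other roles moved the same way. Ero1a, an oxidase of the endoplasmic reticulum that forms disulfide bonds, read 114, 157 and 183 FPKM with LPS and 44.2, 50.5 and 55.0 FPKM with the antibody (log2 change −1.56, SE 0.20, adjusted p = 0.000513). Its LPS libraries spread widely, and the lowest of them was above all antibody libraries. P4hb, which encodes the protein disulfide isomerase that is also a subunit of collagen prolyl hydroxylase and is outside the list, fell from 693, 679 and 637 FPKM to 363, 369.9 and 361 FPKM. Ak4, a mitochondrial adenylate kinase, was 3.09-fold lower, at 37.5, 42.0 and 39.7 FPKM against 11.6, 13.1 and 13.8 FPKM. Ddit4, an inhibitor of mTORC1, was 67.4, 53.0 and 48.3 FPKM against 27.7, 22.9 and 20.2 FPKM. The clock-related repressors Bhlhe40 and Bhlhe41 fell by 1.09 and 1.28 on the log2 scale. Glycogen synthase Gys1 (32.8, 28.2 and 25.1 FPKM against 12.2, 12.1 and 11.8 FPKM) and the glycogen branching enzyme Gbe1 (log2 change −1.07) fell as well.

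Of 7 HIF factors and their hydroxylases 5 fell and none rose (median log2 change −0.58), with 3 called lower without any one of LPS replicate 2, LPS replicate 3 or the 3 LPS+anti-CD36 libraries. Hif1a, the regulated HIF-1 subunit, read 53.3, 69.1 and 78.6 FPKM with LPS and 40.7, 43.8 and 47.5 FPKM with the antibody. Its groups lay apart by a small margin, the log2 change was −0.58 (SE 0.17, adjusted p = 0.0411), and the call was lost in 10 of the 25 alternatives, among them the TPM scale (adjusted p = 0.0621). The prolyl hydroxylase Egln1 fell from 18.5, 15.3 and 14.6 FPKM to 6.16, 5.87 and 5.31 FPKM (log2 change −1.33, adjusted p = 1.33e-05), and Egln3, low throughout, from 1.55, 1.56 and 1.69 FPKM to 0.408, 0.224 and 0.332 FPKM. Vhl, the ubiquitin ligase component that recognises hydroxylated HIF, fell from 15.7, 15.1 and 16.0 FPKM to 10.7, 9.50 and 9.17 FPKM (log2 change −0.63). Hif1an, the asparaginyl hydroxylase FIH, showed the smallest fall of the 5, −0.28 (adjusted p = 0.0185), and with Hif1a it is the member whose call was lost in the fits that left 3. HIF protein was not measured.

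Glycolysis shared the direction with a smaller size. Of 27 genes for glycolysis and for glucose and lactate transport 16 fell, none rose and the median log2 change was −0.46. The count ranged from 13 to 16 when any 1 library was left out. Slc2a1, the glucose transporter GLUT1, read 172, 147 and 135 FPKM with LPS and 80.5, 80.9 and 77.5 FPKM with the antibody (log2 change −0.91, adjusted p = 0.000105). Hk2, the inducible hexokinase, was 56.9, 57.7 and 54.4 FPKM against 32.2, 33.2 and 31.8 FPKM (log2 change −0.78). Both entry steps were thus lower in every antibody library. The neuron-type enolase Eno2 fell furthest in the list (19.9, 20.9 and 24.8 FPKM against 7.63, 7.85 and 9.42 FPKM, log2 change −1.29). Pfkfb3, which makes the allosteric activator of phosphofructokinase, fell by 1.17 on the log2 scale, and Pfkl, the liver-type phosphofructokinase, read 33.7, 27.7 and 24.0 FPKM against 14.1, 13.7 and 13.4 FPKM. Tpi1, triosephosphate isomerase, was 597, 469 and 400.1 FPKM with LPS and 254, 248 and 226 FPKM with the antibody, 2.01-fold lower. In Pfkl and Tpi1 LPS replicate 1 was the highest library and replicate 3 the lowest of the LPS group, while the antibody libraries kept within a narrow band under both.

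At the end of the pathway the changes were mixed in size. Pgk1 fell by 0.46 on the log2 scale (1189, 1234 and 1196 FPKM against 847, 887 and 898 FPKM). Ldha, lactate dehydrogenase A, fell by 0.47 (adjusted p = 0.0479), a call that was lost in 12 of the 25 alternatives, among them the fits without LPS replicate 1 or 2 or any one of the antibody libraries. Slc16a3, the lactate exporter MCT4, fell by 0.99, and Pdk1, the kinase that holds pyruvate out of the tricarboxylic acid cycle, by 1.08. Gapdh was not called (919, 761 and 672 FPKM against 785, 723 and 582 FPKM, adjusted p = 0.476), and its groups overlapped.

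**Figure D4:**
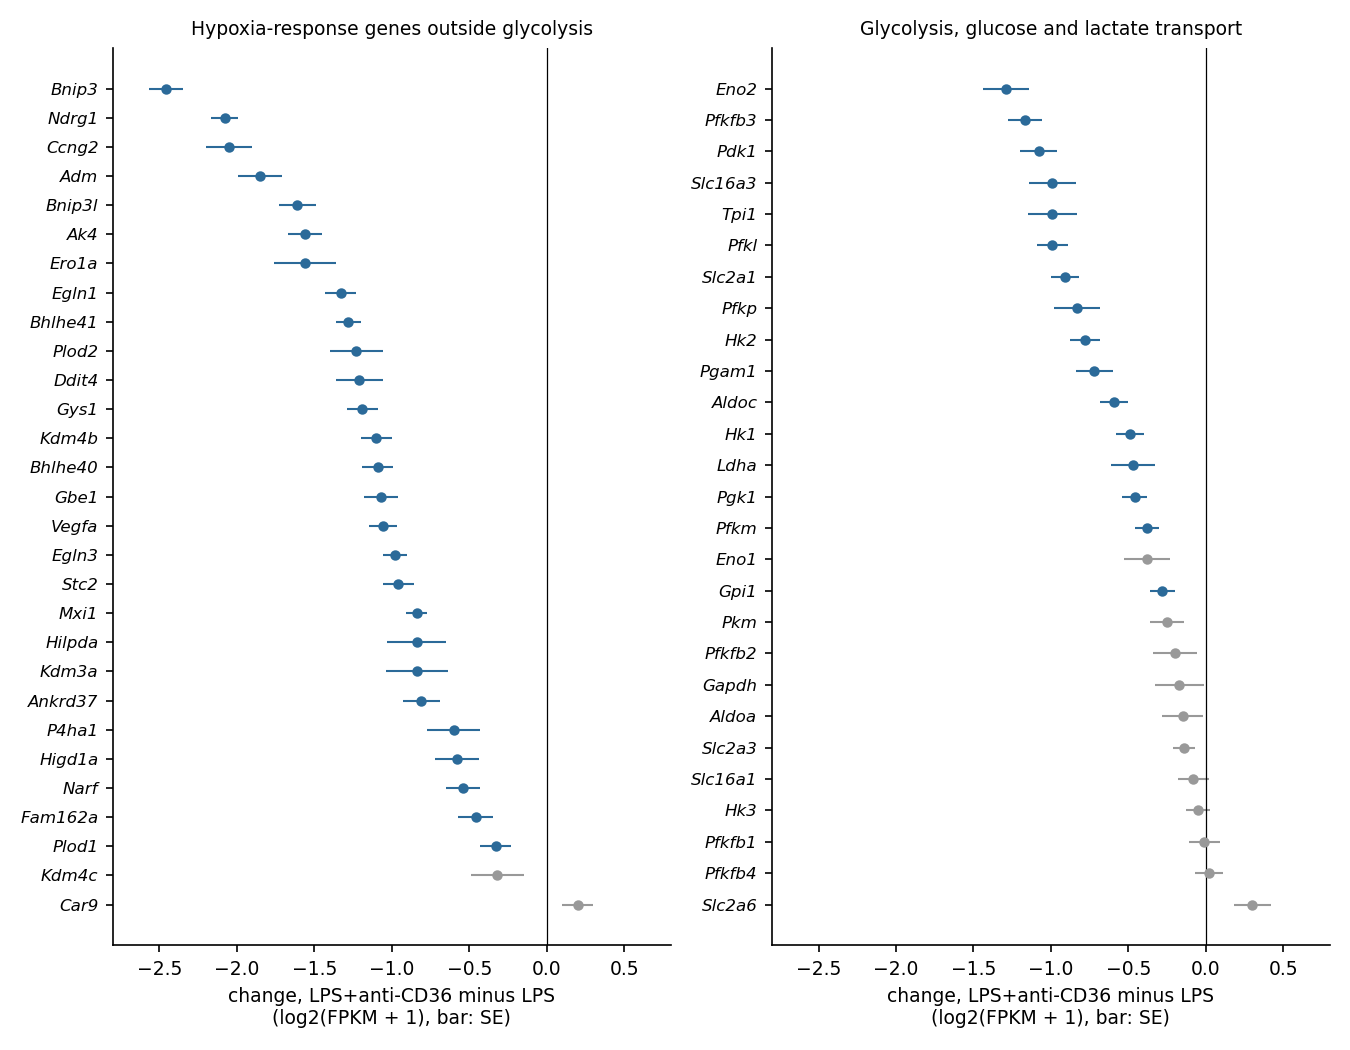
Change LPS+anti-CD36 minus LPS (log2(FPKM + 1), points, with bars of 1 SE from limma) for each of the 29 tested members of the hypoxia list (left panel) and the 27 of the glycolysis list (right panel). Blue points passed an adjusted p of 0.05 and grey points did not. The called points all lie left of 0, from −2.46 for Bnip3 to −0.28 for Gpi1.

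Part of the lipid synthesis genes fell. Of 14 genes for fatty acid synthesis and desaturation 7 fell and none rose (median log2 change −0.39). Scd2, a stearoyl-CoA desaturase that makes monounsaturated fatty acids, read 179, 184 and 179 FPKM with LPS and 58.0, 64.0 and 60.4 FPKM with the antibody (2.97-fold lower, log2 change −1.55, SE 0.12, adjusted p = 9.72e-06). Its relative Scd1 read 21.4, 23.2 and 23 FPKM against 10.3, 10.8 and 9.25 FPKM (log2 change −1.08). Both desaturases had tight groups that stood far apart. Srebf1, the transcription factor SREBP-1, was called lower with a log2 change of −0.46. Of 26 genes for cholesterol synthesis and uptake 9 fell and none rose (median log2 change −0.31), but the count was 14 without LPS replicate 1 and 3 without LPS replicate 2 or any one of the antibody libraries. Insig1, the sterol-sensing brake on SREBP processing, was 27.2, 29.6 and 31.2 FPKM with LPS and 15.3, 16.5 and 15.0 FPKM with the antibody (log2 change −0.87). Of 24 genes for fatty acid uptake and lipid droplets 5 fell, 1 rose and 18 were not called, with a median log2 change of 0.01. Among those that fell were Lpin1, a phosphatidate phosphatase, by 1.17 and Gpat3, which starts glycerolipid assembly, by 0.70. Of 11 genes for LXR receptors and cholesterol efflux 2 fell, 1 rose and 8 were not called. The cholesterol exporters Abca1 and Abcg1, targets of the oxysterol receptor LXR, fell by 0.64 and 0.61.

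Some of the largest falls belonged to no list above. Ciart, a repressor of the circadian clock, read 10.3, 8.39 and 9.15 FPKM with LPS and 2.46, 2.55 and 2.6 FPKM with the antibody (log2 change −1.54). Arrb1, the receptor adaptor beta-arrestin 1, read 11.1, 11.4 and 12.4 FPKM against 3.70, 3.30 and 3.54 FPKM (log2 change −1.49). Atp7a, a copper transporter, read 6.14, 9.19 and 12.0 FPKM against 2.28, 2.47 and 2.24 FPKM (log2 change −1.56), with a wide spread among the LPS libraries and almost none among the antibody libraries. Appl2, an endosomal adaptor, fell by 1.44.

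The libraries without LPS allow the antibody's change under LPS to be set beside its change in otherwise untreated cells, with no library in both. Across 10276 genes the 2 changes had a Pearson r of 0.68 and a Spearman rho of 0.74, given as a description, since genes are not independent and both share the same gene lengths (r was 0.55 with the GC and length trend removed). Without LPS 35 genes were called, and 29 of them were also called with LPS. Of 754 genes called higher under LPS 663 (87.9%) had a positive change without LPS, compared with 48.5% of all genes, and of 837 called lower 738 (88.2%) had a negative one, compared with 51.4%. Scd2 was lower under both conditions (−1.55 with LPS, −0.92 without it, adjusted p = 0.0129 without), and Cxcl2 higher under both, though its level without LPS was 1.29 ± 0.0657 FPKM with the antibody and 0.359 ± 0.0986 FPKM without.

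The difference between the 2 changes was tested as an interaction in the same limma fit, and 132 of 10276 genes (1.28%) were called, 51 with a more positive and 81 with a more negative change under LPS. Of the 29 hypoxia-list members 17 were called more negative under LPS. Bnip3 read 72.3, 72.4 and 66.5 FPKM in untreated cells and 48.1, 51.9 and 50.1 FPKM with the antibody alone. These groups did not overlap, but the change was not called (log2 change −0.48, limma adjusted p = 0.1). The difference between the 2 changes of Bnip3 was −1.98 on the log2 scale. Ndrg1 averaged 14.8 ± 0.693 FPKM in untreated cells and 14.6 ± 1.17 FPKM with the antibody alone, and the difference was −2.05 (adjusted p = 1.1e-05). Slc2a1 averaged 47.8 FPKM in both groups without LPS (SD 3.59 untreated and 1.22 with the antibody), with a difference of −0.91. Of the 28 named genes with a more positive difference, 20 averaged under 1 FPKM in both groups without LPS: Lcn2 averaged 0.0699 and 0.0319 FPKM there, Csf2 0.0369 and 0, and Timp1 0.263 and 0.960. The other 8 were expressed at rest, among them Nr4a1 (1.10 and 1.37 FPKM), Ccl22 (2.45 and 3.21), Ptgir (2.93 and 2.53) and Srxn1 (18.9 and 18.8). For the near-silent genes the log2(FPKM + 1) scale compresses any change at rest. Of the 28 with a more positive difference 11 were still called with a pseudocount of 0.1 and 1 (Nr4a1) in limma-voom on recovered fragments, against 29 and 26 of the 33 with a more negative one. Il6 was left out of this test because its deposited values in the 6 libraries without LPS equal those of Gm10874.

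**Figure D5:**
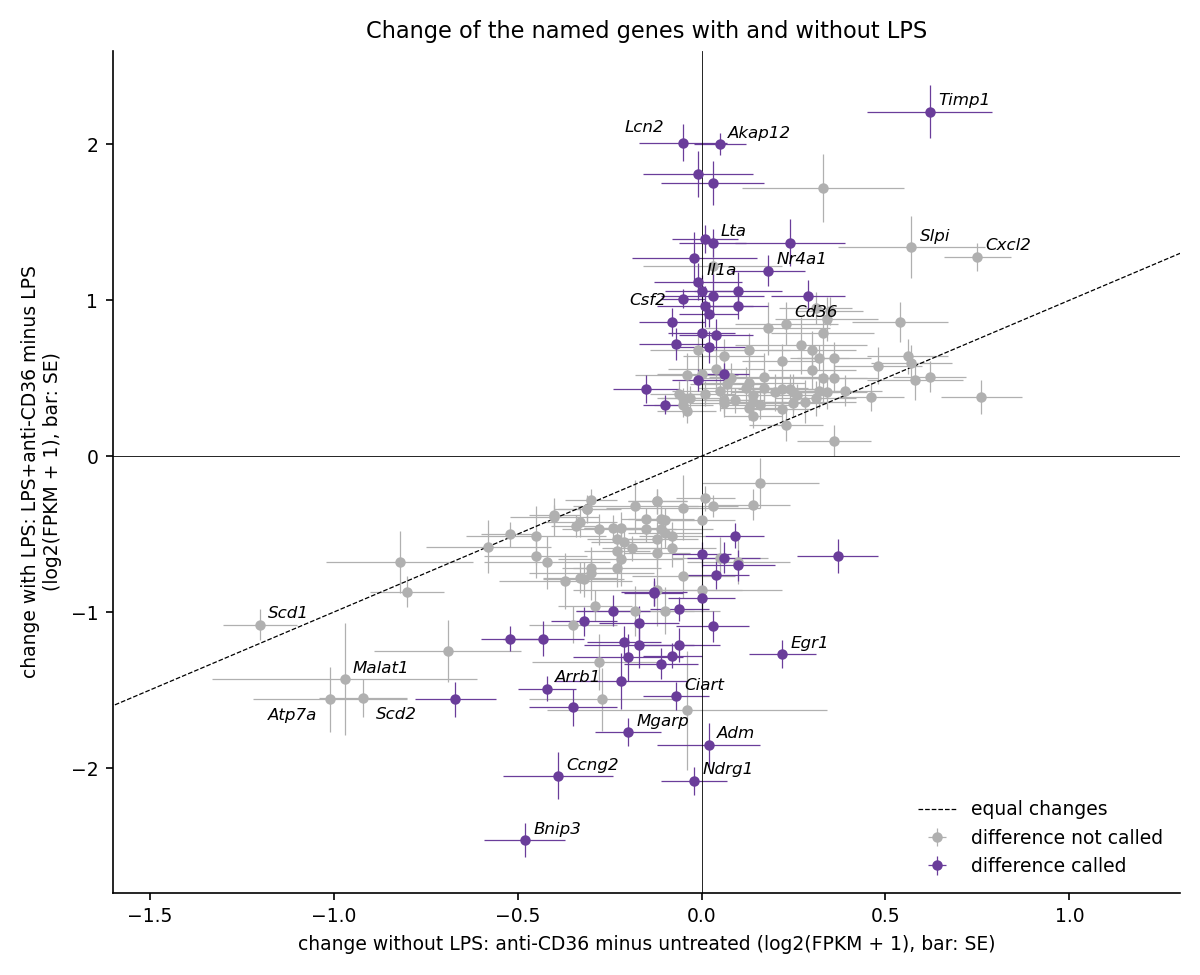
Change with anti-CD36 in LPS-treated cells (y axis, LPS+anti-CD36 minus LPS) against the change in cells without LPS (x axis, anti-CD36 minus untreated), both in log2(FPKM + 1), for the named genes; bars are 1 SE and the dashed line marks equal changes. Purple genes have a called difference: Lcn2 and Akap12 lie above the line with differences of 2.06 and 1.95, and Ndrg1 and Bnip3 lie below it with −2.05 and −1.98.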

How the data were processed

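Messenger RNA of RAW264.7 cells was measured by RNA-seq in 12 libraries, 3 per group, and samples were grouped by the treatment in the labels. The values are the FPKM the authors deposited, per the file headers. The submitters' processing notes name HISAT2 2.0.5 and the builds mm39 and hg38, with no role given, and the counting program and strand setting are not given in the sources used here. Of 31801 entries 82 repeats were left out, which gave 31719 distinct genes. Depth was recovered from whole-read steps with GENCODE M21 exon lengths (94.6% of 17645 genes came out whole within 0.01 fragments) and limits precision: at these depths counting error at 1 FPKM on a 2000-base gene has a CV of 10.14 to 12.6%.

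Genes with at least 1 FPKM in 3 of 12 libraries were fitted as log2(FPKM + 1) in limma 3.58.1 (R 4.3.3) with a mean trend, 4 group means and all 12 libraries sharing 1 error estimate. The contrasts were LPS+anti-CD36 minus LPS, anti-CD36 minus untreated, and their difference, with Benjamini-Hochberg adjustment over all tested genes and a threshold of 0.05. The fit was also run on simulated libraries with noise drawn independently for each gene and library. Deviations shared by many genes of a library were not simulated, so that run does not cover them. Named genes were 7 of the receptor and cytokine axis, the 15 risers and 15 fallers of largest change (called, groups apart, higher mean at least 2 FPKM, no predicted or pseudogene symbols), the 6 risers and 6 fallers of largest FPKM difference, and up to 4 members with the smallest p of each list with at least 3 called members. Another 29 were chosen after their values were seen (Vegfa, Gys1, Gbe1, Hif1a, Car9, Kdm4c, Slc16a3, Hk2, Gapdh, Eno2, Tlr13, Tlr7, Ticam2, Tnfaip3, Il15, Tnfsf15, Il27, Il23a, Ccl2, Ccl5, Cxcl10, Ptgs2, Nfkbia, Rel, Myc, Klf6, Klf2, Srebf1 and Hpgds), as were the other members named beside a short count. The comparison, the 51 gene lists and the rule were chosen with earlier results of these data known, and 1 gene was left out of 2 lists and is not reported here.

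Alternatives were other pseudocounts, filters and scalings (TPM, median of ratios), the 6 libraries alone, a replicate block, a GC and length trend removed from each library, limma without its trend, array weights, each library left out in turn, and, chosen after seeing the data, limma-voom on recovered fragments. Promoter windows and their build are RefSeq's (GRCm38.p6), and gene coordinates are GENCODE M21's (GRCm38).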

Additional observations from a re-analysis of the deposited data

Results flagged for a closer look

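For 61 named genes the anti-CD36 change with LPS differed from its change without LPS in the interaction test of the limma fit (Benjamini-Hochberg adjusted p under the 0.05 threshold). Values are the change with LPS minus the change without it, on the log2(FPKM + 1) scale. Genes were named partly from the gene lists and partly after their values were seen. The make-up of the 61 therefore follows in part from the naming and is no result by itself.

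Hypoxia and glycolysis genes, from which many names were taken, supply most of the 33 named genes with a more negative change under LPS. They are Ndrg1 (−2.05), Bnip3 (−1.98), Adm (−1.87), Ccng2 (−1.66), Bnip3l (−1.25), Egln1 (−1.22), Bhlhe41 (−1.20), Bhlhe40 (−1.12), Eno2 (−1.09), Ddit4 (−1.04), Gys1 (−0.98), Slc2a1 (−0.91), Egln3 (−0.91), Gbe1 (−0.90), Ak4 (−0.89), Pfkfb3 (−0.75), Pfkl (−0.74), Vegfa (−0.74) and Vhl (−0.62). The others are the mitochondrial gene Mgarp (−1.57), the early factors Egr1 (−1.49), Atf3 (−1.16), Jun (−1.01) and Egr3 (−0.71), the clock repressor Ciart (−1.47), the adaptors Appl2 (−1.22) and Arrb1 (−1.07), Nos2 (−0.80), the lipid enzymes Gpat3 (−0.79) and Lpin1 (−0.66), the mRNA-decay factor Zfp36l1 (−0.75), P4hb (−0.74) and C3ar1 (−0.60). Of these 33, 29 were also called with a pseudocount of 0.1, 26 in limma-voom on recovered fragments and 24 on the TPM scale. Nos2 is among those not called in limma-voom because it was not fitted there.

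The 28 named genes with a more positive change under LPS are listed with the secreted products first. They are Lcn2 (2.06), Timp1 (1.59), Lta (1.34), Ccl17 (1.28), Il1a (1.12), Csf2 (1.06), Csf3 (1.00), Il23a (0.97), Il27 (0.95), Il1b (0.86), Ccl7 (0.79), Ccl22 (0.74) and Mmp13 (0.68). Akap12 (1.95), the stefin A copies Csta3 (1.82) and Cstdc4 (1.38), AA467197 (1.72), Mcemp1 (1.13), the receptors Fpr2 (1.06), Fpr1 (0.89), Tnfrsf1b (0.79) and Ptgir (0.58), Nr4a1 (1.01), Ass1 (0.94), Nfkbie (0.74), the integrin Itgal (0.47) and the antioxidant genes Srxn1 (0.50) and Gclm (0.43) complete them. Of the 28, 20 averaged under 1 FPKM in both groups without LPS, where the scale compresses changes. Akap12 and AA467197 passed the filter of 1 FPKM only through the LPS+anti-CD36 group, where they are higher. Of these 28, 11 were also called with a pseudocount of 0.1, so most of these calls depend on the pseudocount, and 14 on the TPM scale. In limma-voom on recovered fragments 1 was called, but some of the 28 were not fitted there, among them Akap12, Il1b, Csta3 and Cstdc4.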

How the results depend on the processing

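Of 186 named genes that were called, 118 kept direction and call in each of the 25 alternatives that could be fitted for them and 68 lost the call in at least 1, of which 43 did with the 6 libraries alone, 32 on the TPM scale, 16 with the GC and length trend removed and 3 in limma-voom on recovered fragments. The 1592 called genes (755 higher, 837 lower) became 940 (394, 546) with the 6 libraries alone and 7430 (3697, 3733) with array weights. With the GC and length trend removed they became 2421, of which 1168 were higher, and 1276 of the 1592 were still called. On the TPM scale 387 were higher. Leaving out 1 library gave 586 to 3980 called genes (260 to 1972 higher, 326 to 2008 lower), with the lowest count without LPS replicate 2 and the highest without LPS replicate 1. The 132 differences between the changes became 85 with a filter of 5 FPKM, 358 with the trend removed, 2955 with array weights, 70 in limma-voom on recovered fragments and 77 to 161 with 1 library left out. The cause was not tested. Depth limits most the genes under 1 FPKM in one group, such as Akap12 and Fpr1 with LPS.

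The deviations of same-numbered LPS and LPS+anti-CD36 libraries from their group means had r of 0.55, −0.04 and 0.57. For differently numbered libraries r ran from −0.58 to 0.33. Whether the numbers pair the samples cannot be told from these values. With the replicate block 3646 genes were called (1889 higher, 1757 lower) and 212 differences, no named gene lost its call, and 3 gained one. The block called 24 of 38 oxidative phosphorylation subunits and 18 of 30 ribosomal protein genes higher, against 4 and 2 without it. With the block and the trend removed the counts were 3520 (1803, 1717) and 522.

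Tnf, not called, turned from 0.10 to −0.02 on the TPM scale and to −0.14 with the trend removed, with or without the block. Car9, not called, turned from 0.20 to −0.00 with the trend removed, with or without the block. In limma-voom the differences of Csf3 and Mmp13 turned from 1.00 to −0.26 and from 0.68 to −0.18.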

Other observations

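In these lists an antibody replicate is an LPS+anti-CD36 library. The counts are to be read beside the 7.35% of all tested genes called higher and the 8.14% called lower. For some housekeeping and growth lists the number of calls depended on single libraries. Of 38 nuclear subunits of oxidative phosphorylation 4 were called higher with anti-CD36 and none lower (median log2 change 0.34, positive in 36), with 25 higher without LPS replicate 1 and 0 without LPS replicate 2 or 3 or antibody replicate 1 or 2. Of 30 ribosomal protein genes 2 were called higher (median log2 change 0.31, positive in 30), with 12 without LPS replicate 1 and 0 without LPS replicate 2 or 3 or antibody replicate 1 or 2. Both lists are of short transcripts, with median exon unions of 1928 and 1901 bases against 4301 bases for all genes tested. Shorter genes tended to higher changes (Spearman rho −0.5 with log2 length). With the GC and length trend removed 5 and 4 were called higher. Of 31 DNA replication genes 5 were higher and none lower, among them Ccne1, Tyms, Rrm2 and Rfc2, with 10 without LPS replicate 1 and 1 without LPS replicate 2.

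Most interferon genes were not called, as were most genes tested (15.5% were called). Of 38 interferon-stimulated genes 1 was higher and 3 lower, a lower share near the 8.14% of all tested genes called lower. The count of lower members was 10 without LPS replicate 1 and 0 without LPS replicate 2 or 3 or antibody replicate 1 or 2. None of 9 guanylate-binding proteins and immunity-related GTPases was called. Of 28 integrated stress response genes 7 fell and none rose, with 4 without LPS replicate 2 and 3 without antibody replicate 2. Among 23 NRF2 antioxidant genes 5 were higher and 1 lower, with 2 higher without LPS replicate 2 or 3 or antibody replicate 1 or 2, and 8 without LPS replicate 1. The adhesion receptor gene Itga4 read 70.3, 99.5 and 119.8 FPKM with LPS and 37.2, 38.5 and 41.7 FPKM with the antibody (log2 change −1.25, limma adjusted p = 0.00261), while Itgal, the alpha chain of LFA-1, rose by 0.53 (adjusted p = 0.000685). The microRNA precursor entries Mir7678 and Mir5119 were also among the genes of largest change, and reads from overlapping transcripts cannot be told apart from theirs.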
